A study of Homo sapiens with 3 samples.

Results

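Expression of 42 genes of the small subunit processome and early ribosomal RNA processing was followed in cells that carried short hairpin RNAs. The sample titles name the cells as HGC-27, a human cell line established from gastric cancer. The members were chosen by gene symbol, and all 42 were found once each among the 58735 genes of the deposited table. The label shUSP16 is carried by 2 libraries, shUSP16-1 and shUSP16-2, and the label shControl by 1, whose genotype label is WT. All were grown in culture medium with fetal bovine serum and antibiotics, and the protocol given for all 3 also lists dexamethasone, isobutylmethylxanthine and insulin. Nothing in the labels tells if the numbers 1 and 2 stand for hairpins or for repeats, nor if each library had a culture of its own, and the p-values below therefore reflect library spread alone, possibly technical. USP16 is a deubiquitinase that removes ubiquitin from histone H2A and, in work on human cells, also from the small subunit protein RPS27A.

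The small subunit processome is the large nucleolar particle that forms on the nascent precursor of ribosomal RNA. Its UTP-A, UTP-B and U3 snoRNP modules bind the leader of the transcript first, base pairing with U3 RNA guides the early cleavages, and helicases and a GTPase later remodel the particle so that the precursor of the small subunit is released. Cells that make many ribosomes, tumour cells among them, express these genes strongly, and many are known targets of the transcription factor MYC.

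USP16 itself had 4.29 FPKM in shUSP16-1 and 5.98 FPKM in shUSP16-2, against 6.28 FPKM in shControl (FPKM, fragments per kilobase of gene scaled to library size). Its reads were 0.683 times those of shControl in shUSP16-1, with an interval of 0.621 to 0.749, and 0.952 times in shUSP16-2, with an interval of 0.875 to 1.04. These and all other intervals of read ratios are exact binomial intervals at 95% and take in counting error alone. Scaled by sums of reads, these ratios were 0.639 (0.582 to 0.702) in shUSP16-1 and 0.876 (0.805 to 0.953) in shUSP16-2. The targeted gene was thus lower beyond counting error in shUSP16-1 on both scalings, while in shUSP16-2 this depended on the scaling, and every direction below rests on the labels. Reads recovered from the FPKM values came to 29530581 in shUSP16-1, 31187845 in shUSP16-2 and 30131136 in shControl. Among markers of gastric epithelium and of the line, KRT19, TFF1 and MUC5AC had 0 reads in all 3 libraries, EPCAM, CLDN18, KRT8, KRT18, GKN1, CDH1 and CDH2 stayed below 1 FPKM, and VIM stood at 159, 180 and 155 FPKM in shUSP16-1, shUSP16-2 and shControl. Of markers of other cell types, PTPRC and PECAM1 had 0 reads, CD68 and ALB stayed below 1 FPKM, and COL1A1, COL3A1 and DCN were expressed. COL1A1 was at 71.1, 78.4 and 52.2 FPKM in shUSP16-1, shUSP16-2 and shControl, above the control in both. COL3A1, at 173, 248 and 192 FPKM, and DCN, at 8.71, 12.2 and 9.51 FPKM in the same order, were below the control in shUSP16-1 and above it in shUSP16-2. The name of the line thus rests on the titles, and these values do not bear out an epithelial identity. In bulk RNA, fewer cells of a type and less RNA per cell cannot be told apart. The part of these marker genes in the values below was not tested.

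The members together were more abundant in both libraries labelled shUSP16. Their summed level was 988 FPKM in shUSP16-1 and 1132 FPKM in shUSP16-2, against 776 FPKM in shControl, which is 1.27 and 1.46 times the control. The median member stood at 12.8 FPKM in shUSP16-1 and 14.8 FPKM in shUSP16-2, against 10.5 FPKM in shControl. NCL, NOLC1 and FBL were the most abundant members per length in every library and made up 42.7%, 43.7% and 41.8% of the summed level in shUSP16-1, shUSP16-2 and shControl. Without these genes the summed level was 1.25 and 1.41 times that of shControl, so the difference did not rest on the most abundant members. At the low end PWP2, KRR1 and DDX47 were the least abundant members in shControl, at 2.02, 2.11 and 0.908 FPKM. The FPKM values divide by the union of all annotated exons of a gene, which is 3.48 times its longest coding transcript for DCAF13 and 2.77 times for DDX47, and this lowers the FPKM of such genes.

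**Figure D1:**
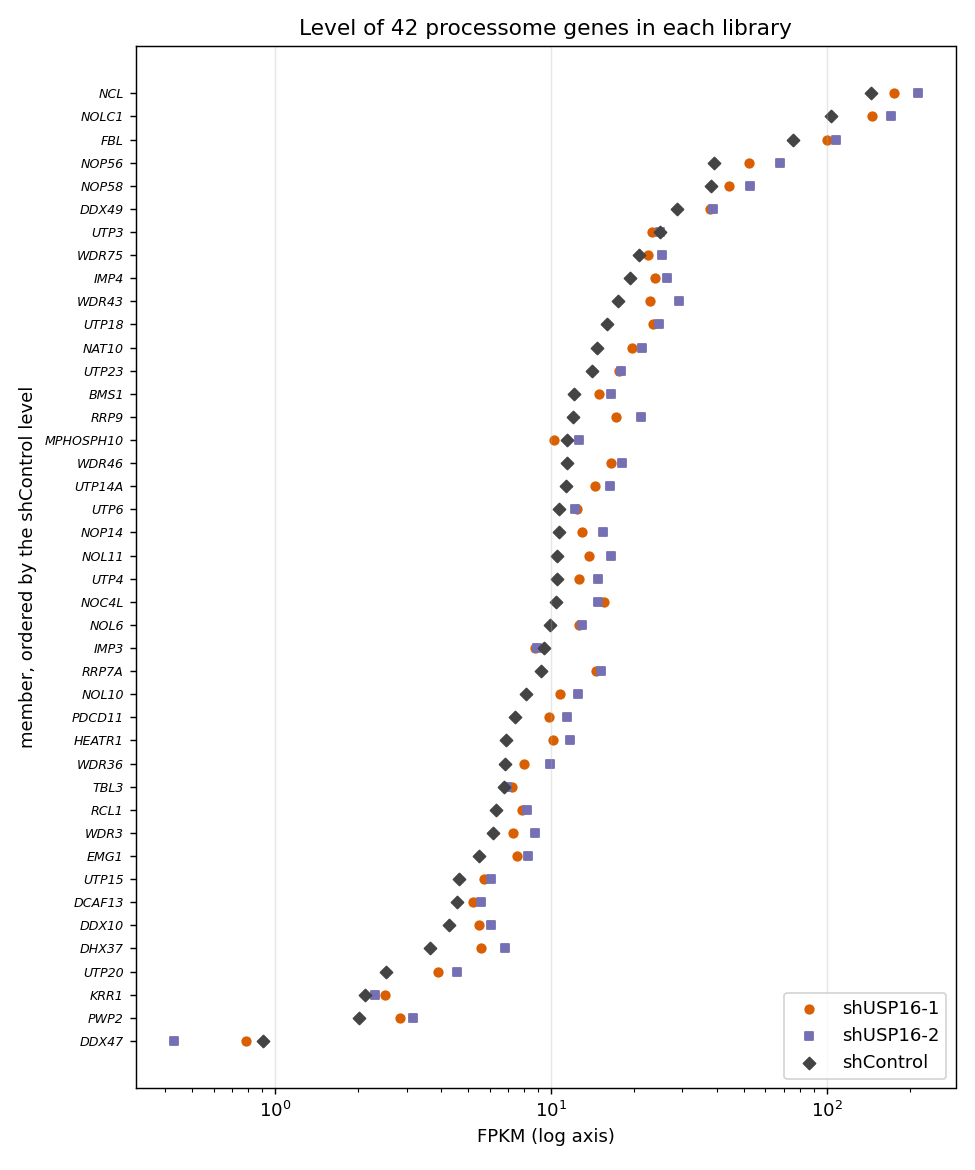
Level of each of the 42 members in FPKM (log axis) in shUSP16-1 (circles), shUSP16-2 (squares) and shControl (diamonds), 1 row per gene ordered by the shControl level. NCL tops the order at 176, 215 and 145 FPKM and DDX47 ends it at 0.783, 0.429 and 0.908 FPKM, and in most rows both shUSP16 points lie to the right of shControl.

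DDX47 averaged less than 1 FPKM and did not enter the test, which covered 41 members and 13852 genes. Of these 41 members, 38 were higher than shControl in both libraries labelled shUSP16 and 2 were lower in both, where 44.9% of all genes tested were higher in both and 32.4% lower in both. The median member difference in log2(FPKM + 1) was 0.32 in shUSP16-1 and 0.48 in shUSP16-2, against 0.041 and 0.043 over all genes tested. Both libraries are set against the same control, so their directions are not independent of each other. With libraries scaled to equal totals of reads, 37 members were higher in both, against 31.3% of all genes, and the median member differences were 0.23 and 0.38.

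No member passed limma with Benjamini-Hochberg adjustment over all genes at an adjusted p of 0.05, and neither did any other gene (0 of 13852, percent called 0). The lowest adjusted p of a member in limma was 0.272, that of RRP7A. At an unadjusted p under 0.05 limma had 26 of the 41 members, all higher, where 14.5% of all genes reached that level and 8.71% did so with a higher value. Restricted to 11069 protein-coding genes, limma called 0 members (0.434% of genes called, lowest adjusted p of a member 0.0609). The count-based alternative, limma voom on recovered reads, called 8 members, all higher, with the totals implied by the FPKM values (2.51% of genes called, 1.47% called higher) and 6, all higher, with sums of reads as totals (4.02% called, 1.00% called higher). Those called by both were NOLC1, NOP56, RRP7A, HEATR1, DHX37 and UTP20, and those called with the first totals alone were UTP18 and WDR46. With 1 control library only shUSP16-1 and shUSP16-2 inform the spread, and an exact permutation test over 3 libraries cannot go below a p of 0.333.

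**Figure D2:**
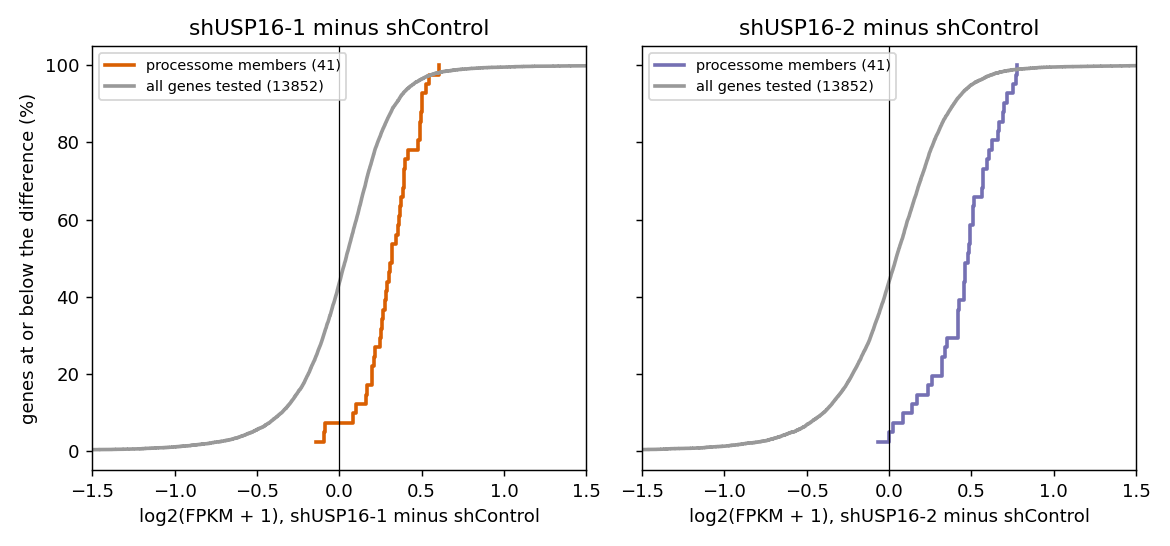
Cumulative share of genes (vertical axis, %) at or below each difference in log2(FPKM + 1) (horizontal axis), for shUSP16-1 minus shControl on the left and shUSP16-2 minus shControl on the right. The coloured line holds the 41 members tested, with medians of 0.32 and 0.48, and the grey line all 13852 genes, with medians of 0.041 and 0.043.

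UTP-A, the module that binds the leader of the precursor and is tied to its transcription by RNA polymerase I, was higher in both libraries for all 6 members. HEATR1, its largest protein, had 10.2 FPKM in shUSP16-1 and 11.7 FPKM in shUSP16-2, against 6.88 FPKM in shControl, with read ratios of 1.48 (interval 1.39 to 1.56) and 1.70 (1.61 to 1.80). The limma log2 difference of HEATR1 was 0.60 with an SE of 0.14 (adjusted p = 0.280), and voom called it (adjusted p = 0.0203, and 0.0239 with sums of reads). WDR43, a WD-repeat subunit, had 22.9 and 29.1 FPKM in shUSP16-1 and shUSP16-2, against 17.6 FPKM in shControl, and a limma log2 difference of 0.53 (SE 0.17, adjusted p = 0.309). For both genes the shUSP16 libraries lay above the control, with shUSP16-2 the higher. Exons of LGALS8 on the opposite strand cover 23.2% of the exon bases of HEATR1, with fewer reads in shUSP16-1 and shUSP16-2 (797 and 878) than in shControl (947). NOL11 had ratios of 1.31 and 1.57, UTP4 of 1.21 and 1.41, and UTP15 of 1.23 and 1.30. WDR75 was closest to the control, at 1.08 and 1.21.

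UTP-B, the module that helps U3 dock onto the precursor, was also above shControl in both libraries for its 6 members, with a wider range. UTP18 had 23.5 FPKM in shUSP16-1 and 24.8 FPKM in shUSP16-2, against 16.0 FPKM in shControl, with a limma log2 difference of 0.56 (SE 0.12, adjusted p = 0.280). PWP2 had 2.84 and 3.16 FPKM in shUSP16-1 and shUSP16-2, against 2.02 FPKM in shControl, from 455 control reads. WDR3 and WDR36 had ratios of 1.19 and 1.17 in shUSP16-1 and of 1.43 and 1.46 in shUSP16-2. UTP6 stood at 1.16 and 1.14. TBL3 had 7.24 FPKM in shUSP16-1 and 6.92 FPKM in shUSP16-2, against 6.78 FPKM in shControl, and the intervals of its read ratios held 1 (0.995 to 1.15 and 0.95 to 1.10). With equal totals the limma log2 difference of TBL3 turned to -0.040, so its direction depends on the scaling.

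RNA of the genes for U3 snoRNP proteins was higher in both libraries for all 4 members. RRP9, the WD-repeat protein specific to U3, had 17.3 FPKM in shUSP16-1 and 21.3 FPKM in shUSP16-2, against 12.0 FPKM in shControl, with ratios of 1.44 (interval 1.29 to 1.60) and 1.77 (1.60 to 1.95). NOP56, a core protein of box C/D snoRNPs, had 52.4 and 67.7 FPKM in shUSP16-1 and shUSP16-2, against 39.0 FPKM in shControl. In limma NOP56 differed by 0.60 with an SE of 0.18 (adjusted p = 0.295), and it was called by voom (adjusted p = 0.0317). Its difference was larger in shUSP16-2 (log2 0.78) than in shUSP16-1 (log2 0.41). FBL, the methyltransferase of these particles, had ratios of 1.32 and 1.43, and NOP58, the partner of NOP56, of 1.16 and 1.38. SNU13, which binds the kink-turn of U3 RNA and was not among the members, had 41.2 and 44.2 FPKM in shUSP16-1 and shUSP16-2, against 26.3 FPKM in shControl.

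The MPP10 complex, which stabilises pairing between U3 and the precursor, and UTP3, the human counterpart of yeast Sas10, were where members departed from this pattern. Only IMP4 of these 4 was higher in both libraries, at 23.9 FPKM in shUSP16-1 and 26.3 FPKM in shUSP16-2, against 19.4 FPKM in shControl. MPHOSPH10, the scaffold of the complex, had 10.3 and 12.7 FPKM in shUSP16-1 and shUSP16-2, against 11.4 FPKM in shControl, so the control lay between them. Its ratio was 0.899 in shUSP16-1 (interval 0.837 to 0.964) and 1.11 in shUSP16-2 (1.04 to 1.19; 0.957 to 1.09 with sums of reads), and in limma it had an adjusted p of 1.00 with an SE of 0.16 on the log2 scale. IMP3, which joins MPHOSPH10 and IMP4, had 8.77 and 8.94 FPKM in shUSP16-1 and shUSP16-2, against 9.42 FPKM in shControl, and UTP3 had 23.3 and 24.9 FPKM, against 24.9 FPKM. With the deposited scaling the intervals of the read ratio of IMP3 and UTP3 held 1 in both libraries, and their limma adjusted p values were 0.780 and 0.883. With sums of reads the intervals lay below 1 in both, at 0.785 to 0.967 and 0.788 to 0.967 for IMP3 and at 0.819 to 0.944 and 0.858 to 0.985 for UTP3, so for these genes a difference beyond counting error depended on the scaling. SNX33 on the opposite strand covers 31.2% of the exon bases of IMP3, with 571, 595 and 737 reads in shUSP16-1, shUSP16-2 and shControl. Its part in the values of IMP3 was not tested. A difference between this complex and the other modules was not tested.

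UTP-C, a small module linked in yeast to casein kinase, held RRP7A, the member with the largest limma log2 difference. By its own reads RRP7A had 14.6 FPKM in shUSP16-1 and 15.2 FPKM in shUSP16-2, against 9.22 FPKM in shControl, with a limma log2 difference of 0.64 (SE 0.12, adjusted p = 0.272). This value is uncertain, because the pseudogene RRP7BP held 685, 612 and 870 reads in shUSP16-1, shUSP16-2 and shControl. Summed with RRP7BP, the ratios to shControl were 1.28 and 1.27, in place of 1.58 and 1.65 for RRP7A alone. NOL6, the human counterpart of yeast Utp22, had ratios of 1.28 and 1.31.

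BMS1, the GTPase of the processome, and RCL1, its partner, were both higher in both libraries. BMS1 had 14.9 and 16.5 FPKM in shUSP16-1 and shUSP16-2, against 12.1 FPKM in shControl, and RCL1 had 7.85 and 8.19 FPKM, against 6.35 FPKM. Their limma log2 differences were 0.35 (SE 0.13, adjusted p = 0.332) and 0.30 (SE 0.12, adjusted p = 0.359). BMS1 also has many copies: 20 genes named as its pseudogenes held 2064, 2306 and 2750 reads in shUSP16-1, shUSP16-2 and shControl. Summed with them, the ratios of BMS1 were 1.04 and 1.14, in place of 1.23 and 1.37.

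NOP14, NOC4L and EMG1, which in yeast join the particle as interacting factors, were higher in both libraries. NOC4L had 15.6 FPKM in shUSP16-1 and 14.9 FPKM in shUSP16-2, against 10.4 FPKM in shControl, with a limma log2 difference of 0.51 (SE 0.12, adjusted p = 0.280). EMG1, a methyltransferase that modifies a pseudouridine of the small subunit RNA, had 7.55 and 8.28 FPKM in shUSP16-1 and shUSP16-2, against 5.50 FPKM in shControl. Exons of LPCAT3 on the opposite strand cover 49.5% of the exon bases of EMG1. LPCAT3 had 723, 741 and 632 reads in shUSP16-1, shUSP16-2 and shControl. The sources used here do not give the strand setting of the counting, so it is unknown how reads in these shared bases were assigned. NOP14 had ratios of 1.21 and 1.45, with NOP14-AS1 covering 17.1% of its exon bases.

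The helicases that remodel the particle were higher in both libraries apart from DDX47. DHX37, which pulls U3 off the precursor, had 5.58 FPKM in shUSP16-1 and 6.82 FPKM in shUSP16-2, against 3.64 FPKM in shControl. Its ratios were 1.53 (interval 1.40 to 1.68) and 1.87 (1.72 to 2.05), and the value in shUSP16-2 was the highest of any member in either library. In limma DHX37 differed by 0.63 with an SE of 0.16 (adjusted p = 0.280), and voom called it (adjusted p = 0.0286). UTP14A, the activator of DHX37, had ratios of 1.27 and 1.44, and summed with its close copy UTP14C of 1.31 and 1.44. DDX49 had 37.9 and 38.7 FPKM in shUSP16-1 and shUSP16-2, against 28.7 FPKM in shControl, and DDX10 had ratios of 1.29 and 1.42. DDX47 went the other way, at 0.783 and 0.429 FPKM in shUSP16-1 and shUSP16-2, against 0.908 FPKM in shControl. It rested on 118, 67 and 149 reads, the fewest of any member, and 36.5% of its exon bases also belong to APOLD1 on the same strand.

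The remaining processome factors were higher in both libraries for all 8 members. UTP20, a very large scaffold protein, had 3.90 FPKM in shUSP16-1 and 4.58 FPKM in shUSP16-2, against 2.52 FPKM in shControl, with ratios of 1.55 and 1.81 and a limma log2 difference of 0.57 (SE 0.15, adjusted p = 0.290). WDR46 had 16.5 and 18.1 FPKM in shUSP16-1 and shUSP16-2, against 11.4 FPKM in shControl, and a limma log2 difference of 0.56 (SE 0.13, adjusted p = 0.280). NAT10, which acetylates cytidines of the small subunit RNA, had ratios of 1.33 and 1.45, PDCD11, the counterpart of yeast Rrp5, of 1.32 and 1.54, and NOL10 of 1.33 and 1.55. Smaller ratios were those of UTP23 (1.26 and 1.28), DCAF13 (1.15 and 1.22) and KRR1 (1.18 and 1.09). For KRR1 the interval in shUSP16-2 held 1 (0.981 to 1.20). UTP23 shares 9.86% of its exon bases with RAD21 on the opposite strand, a gene with 45491, 48899 and 43162 reads in shUSP16-1, shUSP16-2 and shControl.

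NOLC1 and NCL, abundant nucleolar phosphoproteins that bind snoRNPs and the precursor, were the best measured members. NOLC1 had 146 FPKM in shUSP16-1 and 171 FPKM in shUSP16-2, against 104 FPKM in shControl, with ratios of 1.41 (interval 1.38 to 1.44) and 1.65 (1.62 to 1.69). NCL had 176 and 215 FPKM in shUSP16-1 and shUSP16-2, against 145 FPKM in shControl, with ratios of 1.22 (1.20 to 1.23) and 1.49 (1.47 to 1.51). These narrow intervals do not overlap between the libraries labelled shUSP16, so for both genes the libraries differed from each other by more than counting error. In limma NOLC1 differed by 0.60 (SE 0.14, adjusted p = 0.280) and NCL by 0.42 (SE 0.15, adjusted p = 0.324).

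**Figure D3:**
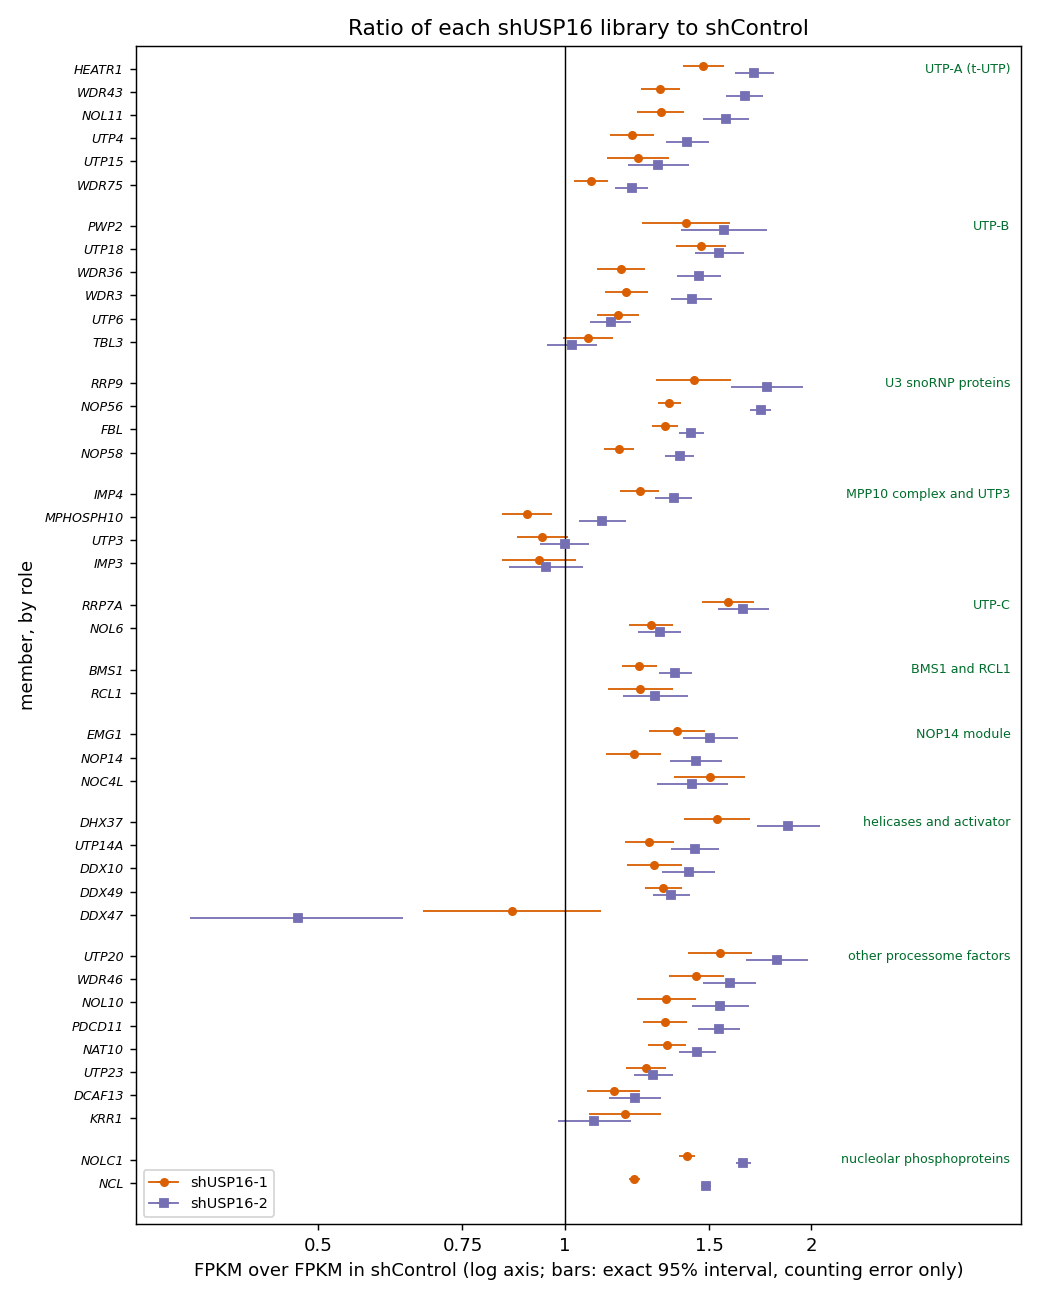
Ratio of FPKM in shUSP16-1 (circles) and shUSP16-2 (squares) to FPKM in shControl (log axis) for all 42 members grouped by role, with exact binomial 95% intervals that cover counting error only. The line at 1 is the shControl level. Points reach 1.58 in shUSP16-1 for RRP7A and 1.87 in shUSP16-2 for DHX37, while IMP3, UTP3, MPHOSPH10, TBL3 and DDX47 lie at, across or below 1.

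For 36 of the 41 members the interval of the read ratio lay above 1 in both libraries, where this held for 28.0% of all genes tested. With sums of reads it did so for 33 members and 16.9% of all genes, and WDR75, UTP6 and DCAF13 no longer passed. BMS1 and RRP7A are counted here by their own reads, without their pseudogenes. In size, 3 members (RRP7A, DHX37 and UTP20) were more than 1.5 times the control in both libraries, where 1.96% of all genes were, but RRP7A summed with RRP7BP was not. With sums of reads 0 members were past this size in both libraries (1.16% of all genes), since the ratios in shUSP16-1 were then 1.48 for RRP7A, 1.44 for DHX37 and 1.45 for UTP20. Over the 41 members, Spearman's rho between the shControl level and the limma log2 difference was 0.11, a description across genes that share their libraries. The shControl level enters both values, and the log2(FPKM + 1) scale understates the change of low genes. The rho therefore cannot show whether a relation with abundance exists.

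The libraries labelled shUSP16 differed from each other in the members. In shUSP16-2, 37 of the 41 members were higher than in shUSP16-1, where 52.2% of all genes were. For 26 members the interval of the read ratio of shUSP16-2 to shUSP16-1 lay above 1, for 0 it lay below 1 and for 15 it held 1. The share of all genes with such intervals was not computed, so these counts cannot be read as particular to the members. Over 18422 genes these libraries differed by a chi-square of 13.1 per degree of freedom, well beyond counting error. The exceptions in direction were NOC4L, UTP6, TBL3 and KRR1. The library with USP16 closest to the control thus had the higher member values, and with 1 library of each number this difference has no replicate check.

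Other genes of early processing, listed apart from the members, were higher in both libraries for 22 of 25, with median log2 differences of 0.28 for shUSP16-1 and 0.38 for shUSP16-2. limma called 0 of them over all genes (9 had an unadjusted p under 0.05), and voom with the totals implied by FPKM called 4, all higher. Besides SNU13 the largest were NHP2 and DKC1, of the snoRNPs that guide pseudouridylation, and MYBBP1A, a nucleolar regulator. NHP2 had 33.2 and 34.1 FPKM in shUSP16-1 and shUSP16-2, against 22.5 FPKM in shControl, DKC1 had 44.9 and 53.3 FPKM, against 32.4 FPKM, and MYBBP1A had 13.8 and 15.6 FPKM, against 9.60 FPKM. NOP9 was lower in both, at 3.56 and 3.39 FPKM, against 4.03 FPKM in shControl.

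Set beside the other ribosome assembly lists, the members had the highest median limma log2 difference, at 0.40. It was 0.35 for 47 genes of 60S assembly, 0.30 for the 25 other early processing genes, 0.27 for 16 genes of late 40S maturation and 0.20 for 32 ribosomal proteins of the 40S subunit, against 0.042 for all genes tested. The shares higher in both libraries were 92.7% for the members, 91.5% for 60S assembly, 100% for late 40S maturation and 93.8% for 40S ribosomal proteins. The differences between these lists were not tested, and their single genes overlap widely.

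**Figure D4:**
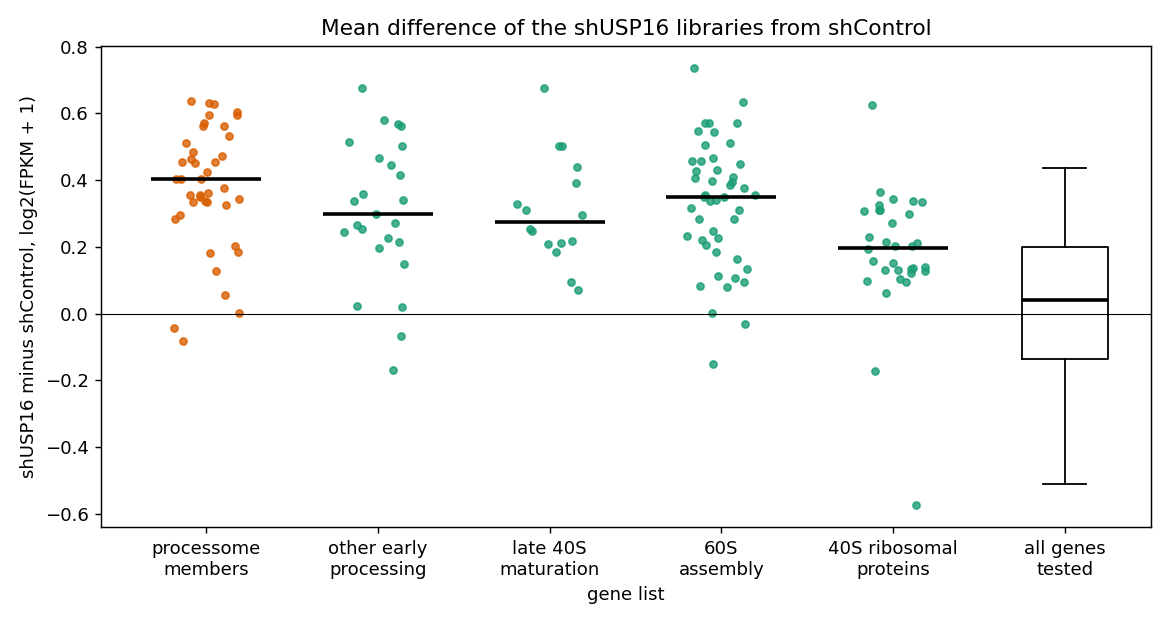
Mean difference of the libraries labelled shUSP16 from shControl in log2(FPKM + 1) for each gene (points) of 5 lists, with the list median as a bar, and for all 13852 genes as a box (quartiles and median, whiskers at the percentiles 5 and 95). Medians run from 0.40 for the members to 0.20 for 40S ribosomal proteins and 0.042 for all genes.

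The promoters of the members were read for CACGTG, the E-box letters that MYC and related factors can bind, in the 250 bases before each RefSeq start. RefSeq promoters on GRCh38.p14 matched 35 of the 42 members with 36 promoters, and CACGTG, which reads the same on both strands, was found in 6 of them (16.7%). Among 13334 promoters of 9147 genes tested the share was 8.39%, and among all 35116 promoters, of 27305 genes, 6.34%. These shares count promoters, and the genes tested had more promoters per gene than the members. Shares per gene were not computed. The difference between these shares, which rests on 6 member promoters, was not tested. Neither was any part of MYC in the member values. MYC itself had 143 and 149 FPKM in shUSP16-1 and shUSP16-2, against 114 FPKM in shControl. Its read ratios were 1.26 (interval 1.23 to 1.29) and 1.31 (1.28 to 1.34), and limma did not call it (adjusted p = 0.292). The matches are shown with up to 20 bases on each side, CACGTG in capitals, 5′ to 3′ on the strand of the gene, which is the plus strand for all 6.
UTP18: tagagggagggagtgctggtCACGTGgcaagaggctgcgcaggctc
UTP20: gcgccgttcttttttccgtcCACGTGaccc
NAT10: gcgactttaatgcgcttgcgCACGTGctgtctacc
UTP14A: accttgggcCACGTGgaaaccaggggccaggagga
IMP4: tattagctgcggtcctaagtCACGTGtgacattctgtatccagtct
UTP4: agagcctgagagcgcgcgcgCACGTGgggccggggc
The motif began 89 bases before the RefSeq start in UTP18, 10 in UTP20, 15 in NAT10, 241 in UTP14A, 203 in IMP4 and 16 in UTP4. For IMP4, UTP4, NAT10, UTP14A and UTP18 the RefSeq start lies inside the gene by the deposited coordinates. The whole windows of IMP4 and UTP4 follow the deposited gene start. In NAT10 the motif follows it too, while in UTP14A, UTP18 and UTP20 the motif lies before it. The 6 members with the motif had a median difference in their weaker library of 0.36, and the 29 others with a promoter of 0.30, a description of letters in these windows. The whole 250 bases are given for UTP18 (chr17:51260296-51260545) and UTP20 (chr12:101279855-101280104), the members with the motif that differed most from the control, with CACGTG again in capitals.
UTP18: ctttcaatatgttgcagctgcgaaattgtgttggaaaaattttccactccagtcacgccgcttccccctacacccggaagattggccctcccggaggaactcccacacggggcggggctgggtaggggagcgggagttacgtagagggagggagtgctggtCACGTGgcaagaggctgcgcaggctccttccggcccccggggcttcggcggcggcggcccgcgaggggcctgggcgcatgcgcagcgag
UTP20: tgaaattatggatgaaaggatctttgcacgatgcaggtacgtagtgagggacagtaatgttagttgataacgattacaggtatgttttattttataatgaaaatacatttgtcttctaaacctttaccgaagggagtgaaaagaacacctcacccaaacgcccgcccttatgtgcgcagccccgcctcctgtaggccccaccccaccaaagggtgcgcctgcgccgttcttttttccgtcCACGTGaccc

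Several members also carry snoRNA genes in their introns or alternative exons. By the coordinates of the table, 16 snoRNA genes lie on the same strand within 5 members, NCL, NOP56, NOP58, WDR43 and NOL11. Inside NOP56 all 5 had 0 reads in every library, and they lie, in whole or in part, in bases annotated as exons of NOP56 too. Inside NCL, SNORA75 had 27 and 50 reads in shUSP16-1 and shUSP16-2, against 59 reads in shControl, and SNORD20 had 25 and 22 reads, against 75 reads. Inside NOP58, SNORD11 had 21 and 29 reads, against 11 reads in shControl. Of these best covered snoRNA genes, the ones in NCL had fewer raw reads than the control and the one in NOP58 more. No scaling or interval was applied to them, so a difference beyond counting error was not shown. The other snoRNA genes had at most 13 reads in any library. The sources used here do not say how RNA was selected by size, and these counts are given as listed.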

How the data were processed

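RNA-seq libraries of HGC-27 cells, 2 labelled shUSP16 and 1 labelled shControl, were grouped by their titles. The authors deposited FPKM values for 58735 genes with gene lengths, per the file headers. The sources used here do not give the aligner, counter or strand setting. Builds GRCm38 and mm10 stand in the submitters' processing notes, but start, end and strand of all 58735 human gene IDs equal GENCODE release 29 on GRCh38, and each deposited length equals the union of its exons there.

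FPKM times length was a whole multiple of 1 step per library for 100% of values above 0 (tolerance 0.01 reads), which gave the reads. The totals implied by the deposited FPKM were 1.01, 0.994 and 1.08 times the sums of reads in shUSP16-1, shUSP16-2 and shControl, so both scalings were compared. The libraries labelled shUSP16 differed by a chi-square of 13.1 per degree of freedom over 18422 genes and were entered as separate libraries.

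log2(FPKM + 1) was compared for the 13852 genes that averaged 1 FPKM or more with limma 3.58.1 (R 4.3.3; variance trend, Benjamini-Hochberg adjustment, threshold 0.05), with 1 residual and 4.05 prior degrees of freedom and the control taken to vary as the other libraries do. Fold changes on this scale understate the change of low genes. limma and voom were also run on simulated data with a fixed spread, where only the sign of planted changes was checked. That run does not tell how often these methods make false calls in the libraries used here. Alternatives changed the pseudocount, filter, scaling, biotypes, trend, threshold, library left out and test. Named with all 3 values were, per role, the 2 members whose smaller difference of both libraries was largest. The rule also took members not higher in both and up to 4 other genes. SNORD20, SNORA75, SNORD11, TBL3, KRR1, NOP9, MYC, the marker genes and genes overlapping members were named outside this rule, after their values were seen. Intervals and sizes with sums of reads were added after the data were seen. The members, lists and tests were chosen with earlier results of these data known. Other steps used Python 3.11.15 with scipy 1.17.1, pandas 2.3.3, matplotlib 3.10.9 and numpy 2.4.6.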

Additional observations from a re-analysis of the deposited data

How the results depend on the processing

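No member was called by limma under the pseudocount, filter, scaling, trend, biotype or threshold alternatives, each changed alone. Restricted to protein-coding genes, 9 members had a limma adjusted p under 0.1, a level at which the share of all those genes was not computed. By voom 8 of 41 were called with the totals implied by FPKM and 6 with sums of reads, all higher. Over the whole table limma called 0 genes, but 13 with a mean of at least 5 FPKM (3 higher) and 48 among protein-coding genes (17 higher). Voom called 348 (204 higher) with the first totals and 557 (139 higher) with sums of reads, so the share of higher calls changed with the scaling. The count of members higher in both libraries was 37 with equal totals and in voom with sums of reads, 35 of 38 with a mean of at least 5 FPKM, where fewer members were tested, and 38 otherwise. With sums of reads, an alternative chosen after seeing the data, 33 members in place of 36 had read ratio intervals above 1 in both libraries, and 0 in place of 3 were past 1.5 times the control in both. Leaving out a library labelled shUSP16 gave 38 and 39 members above the control and medians of 0.32 and 0.48, as values with no test, since no residual degrees of freedom were left. The median over members ran from 0.30 with equal totals to 0.43 with voom. The log2 difference of MPHOSPH10 turned to -0.00052 with a pseudocount of 0.1, -0.099 with equal totals, -0.0012 with median ratio scaling, and -0.11 in voom with sums of reads, and ran from -0.14 without shUSP16-2 to 0.14 without shUSP16-1. That of TBL3 turned to -0.040 with equal totals and -0.046 in voom with sums of reads. The cause was not tested. No paired analysis was possible because shControl has 1 library. Depth was least for DDX47, with 67 to 149 reads, and with either scaling the interval of the read ratio held 1 in both libraries for TBL3 and in shUSP16-2 for KRR1.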
